A study of Mus musculus with 13 samples.

Results

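The interleukins are secreted signalling proteins of the immune system, and 69 rows of the count table belong to them and to their receptors, out of 54513 rows in all. The 69 members are the rows whose symbol begins with Il and a digit and whose counts, summed over the 13 libraries, exceed 10. By role they comprise 24 ligands, 37 receptor chains, 3 secreted antagonists, 3 decoy receptors and 2 other genes, the enzyme gene Il4i1 and the antisense transcript Il1bos. The pattern matched 84 rows, and 15 of them held a sum of 10 or less. Il17c stood just outside the threshold with 10 counts and Il2 with 8, and Il24 stood just inside it with 14, Il20ra and Il21 with 16 and Il4 with 19. Il17a, Il3, Il9 and Il20 were among 7 rows with no count in any library.

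An interleukin acts when it binds a receptor built from a chain that recognises the ligand and a chain that several receptors share, such as the common gamma chain or the gp130 chain. Receptors of the IL-2, IL-4, IL-6, IL-10 and IL-12 groups signal through JAK kinases and STAT factors, whereas those of the IL-1 and IL-17 groups signal through adaptor proteins to NF-kB. Antagonists and decoy receptors occupy a receptor or catch the ligand without passing on a signal, so the balance of ligand, receptor and inhibitor is followed in inflamed and scarring lung.

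The lungs came from male C57Bl/6 mice aged 7 to 8 weeks, and no genetic change is named in the labels. Bleomycin, a DNA-damaging drug used to model lung fibrosis, had been given to the mice behind 8 libraries: replicates 5 to 8 are labelled batch 1 and replicates 1 to 4 batch 2. Saline had been given to those behind 5 libraries, all labelled batch 1. All lungs were taken at day 21 and kept as formalin-fixed paraffin blocks, and total RNA from a section 10 µm thick (8 ng per library) was sequenced. The lung as a whole was sampled, so levels mix all of its cells. What the batch label stands for is not given, and the numbers in the library names put batch 1 bleomycin, batch 2 bleomycin and saline in runs of their own, so a difference between such sets and the treatment cannot be told apart. The labels number the replicates without tying each library to its own animal, and the p-values measure the spread between these libraries only.

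Libraries of batch 1 bleomycin held 21727502 to 28885129 counts, those of batch 2 bleomycin 6337147 to 12982422, and those of saline 9527580 to 26043735, so precision is lowest in batch 2. The lung label was checked with 6 markers of surfactant-producing alveolar type 2 cells. Levels here are CPM, a count scaled by the library's total and TMM factor. The markers summed to 2444 to 4733 CPM in batch 1 bleomycin, 3173 to 7719 CPM in batch 2 bleomycin, and 5683 to 7499 CPM in saline. The title of bleomycin replicate 8 calls it a control, while its treatment label and library name say bleomycin, and it was kept as bleomycin. Among the members, it held 33.4 CPM of Il21r, 37.1 CPM of Il7r and 249 CPM of Il4ra, where saline libraries held at most 6.49, 10.2 and 87.1 CPM. These members were called with replicate 8 in bleomycin, so they do not test its label. Its 1.67 CPM of Il12a lay within the saline range of 1.61 to 3.14 CPM. With replicate 8 placed in saline, 3 members passed as higher and 3 as lower, and with it left out 21 passed as higher and 8 as lower, against 23 and 7 with it in bleomycin. The members tested numbered 57, 57 and 56. Over all genes, 399 of 21237 tested passed as higher and 246 as lower with it in saline. With it left out these were 2863 and 2640 of 20694, against 3586 and 2733 of 20468 with it in bleomycin.

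The first question is which interleukin and receptor genes differed between bleomycin and saline lungs at day 21. Receptor chains made up most of the genes that rose, and also most of those tested (34 of 56). Of 56 members with enough counts to test, 23 were higher in bleomycin (41.1%, against 17.5% of all 20468 tested genes) and 7 were lower (12.5%, against 13.4%). A gene was called when its Benjamini-Hochberg adjusted p over all tested genes was under 0.05 in edgeR's quasi-likelihood test with batch and treatment as terms. Because all saline libraries are in batch 1, this compares the 4 batch 1 bleomycin libraries with the 5 saline libraries. The median log2 change was 0.48 over the tested members and 0.03 over all tested genes. Among receptor chains, 17 of 34 tested were higher and 4 lower (median log2 change 0.77). Among ligands, 4 of 16 tested were higher and 2 lower (median -0.25). Several of these ligands had few counts, and a change in such genes is less likely to be called. Without bleomycin replicate 7 the members called lower numbered 4 of 57 tested, against 2224 of all 20620 tested genes. In whole lung tissue, a change in the share of cells that carry a transcript and a change in its amount per cell cannot be told apart.

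In batch 1, the bleomycin libraries lay entirely above saline for 20 tested members (35.7%, against 14% of all genes) and entirely below for 4 (7.14%, against 11.3%). The batch 2 bleomycin libraries lay entirely above saline for 21 members (37.5%, against 15.3%) and entirely below for 3 (5.36%, against 12.9%). These groups share the saline libraries and are not independent. For 17 of the 23 higher members all 8 bleomycin libraries exceeded every saline library, and all 23 had a batch 2 mean above the saline mean. Of the 7 lower members, Il6ra alone had both bleomycin batches entirely below saline. Between batch 2 and batch 1 bleomycin, 1 of 56 tested members differed (1.79%, against 1.68% of all genes).

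**Figure D1:**
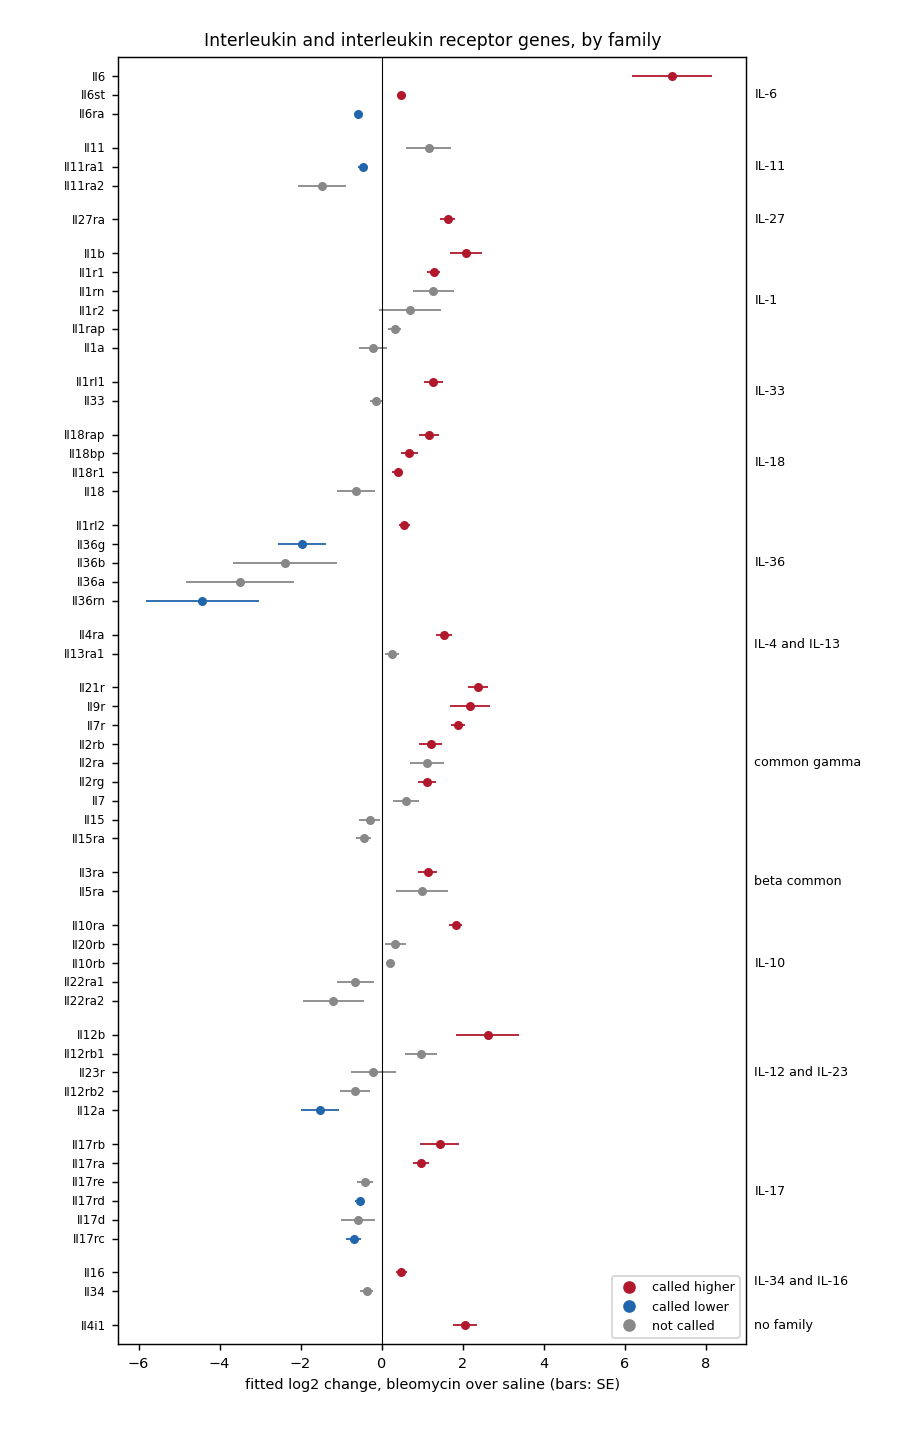
Fitted log2 change of the 56 tested members (points, horizontal axis, bleomycin over saline) with standard errors (bars), grouped by ligand and receptor family. Red points are the 23 genes called higher, blue the 7 called lower and grey those not called; Il6 stands far to the right at 7.16 and the IL-36 ligand and antagonist genes to the left.

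Il6, which encodes the ligand that drives the acute-phase response, showed the largest fitted change of any member. It had 2.06, 21.1, 2.91 and 3.01 CPM in batch 1 bleomycin replicates 5 to 8 and 0.664, 1.02, 0.507 and 0.879 CPM in batch 2 bleomycin, against 0.170 CPM in saline replicate 1 and 0 in the other 4 saline libraries. All 8 bleomycin libraries exceeded all saline libraries, and replicate 6 stood apart from its group. The fitted log2 change was 7.16 (SE 0.99, adjusted p = 0.000131), and it was 5.72 (adjusted p = 0.000181) without bleomycin replicate 6 and 9.94 (adjusted p = 0.00114) without saline replicate 1, which holds all 4 saline counts. As pooled counts, batch 1 bleomycin held 805 and saline 4, a ratio of 174 per scaled total (95% exact interval 67.6 to 639). Batch 2 bleomycin held 26 counts, a ratio of 16.8 (5.82 to 66.1) over saline. These intervals cover counting error only, and they are too narrow where both reads of a pair were counted. The batch term of Il6 was -3.24 on the log2 scale and did not pass (adjusted p = 0.0708).

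The stretch before the Il6 start is shown because it holds a word like the motif of NF-kB, the factor that IL-1 and IL-17 receptors are known to activate. It spans chr5:30012864-30013113 on the plus strand of GRCm38.p6 (RefSeq) and ends at the base before the start. The capitals near its 3′ end mark an NF-kB-like match (GGGNNNTTCC) at positions -44 to -35 from the start, and those at its 5′ end an AP-1-like match (TGANTCA) at -249 to -243.
Il6: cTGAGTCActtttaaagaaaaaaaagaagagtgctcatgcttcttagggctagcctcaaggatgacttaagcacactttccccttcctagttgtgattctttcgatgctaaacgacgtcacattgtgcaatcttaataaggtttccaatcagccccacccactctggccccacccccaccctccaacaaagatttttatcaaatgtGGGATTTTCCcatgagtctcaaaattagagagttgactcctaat

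Il1b, the ligand released by inflammasome activation in myeloid cells, also rose. Its levels were 12.1, 19.5, 11.7 and 8.98 CPM in batch 1 bleomycin and 11.8, 8.88, 4.48 and 4.25 CPM in batch 2 bleomycin, against 3.41, 2.09, 4.74, 3.90 and 1.03 CPM in saline. The batch 1 bleomycin libraries all lay above saline, while 2 batch 2 libraries lay within the saline range. The log2 change was 2.08 (SE 0.40, adjusted p = 0.00126). Il1a, the sister ligand that also acts as an alarm signal of dying cells, had 1.77 ± 0.607 CPM in batch 1 bleomycin, 1.38 ± 0.208 CPM in batch 2 bleomycin and 2.03 ± 0.371 CPM in saline and was not called (adjusted p = 0.678). Here and below, ± is the SD over 4, 4 and 5 libraries.

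Il12b and Il12a, the chains that together form IL-12, were called in opposite directions. Il12b encodes the p40 chain that IL-12 and IL-23 share. It had 0.618, 2.15, 1.42 and 1.14 CPM in batch 1 bleomycin and 2.32, 2.14, 0.676 and 1.46 CPM in batch 2 bleomycin, against 0.341, 0.232, 0, 0.503 and 0 CPM in saline. Neither batch overlapped saline, and the log2 change was 2.62 (SE 0.79, adjusted p = 0.0185). Il12a encodes p35, the chain that completes IL-12. Its levels were 0.412, 0.590, 0.472 and 1.67 CPM in batch 1 bleomycin and 1.33, 1.02, 1.18 and 2.20 CPM in batch 2 bleomycin, against 2.05, 2.32, 1.61, 3.14 and 2.21 CPM in saline. In batch 1, 3 libraries were below saline and replicate 8 overlapped it, and the log2 change was -1.52 (SE 0.47, adjusted p = 0.0208). Both calls are weak. The Il12b call was lost without bleomycin replicate 6 (adjusted p = 0.0627), and that of Il12a was lost without bleomycin replicate 5, 6 or 7 (adjusted p = 0.0511 to 0.0641) and without a batch term (0.0512), while without replicate 8 its log2 change was -2.21. Il23a, the p19 chain of IL-23, was too low to test, with 34 pooled counts in batch 1 bleomycin, 12 in batch 2 bleomycin and 4 in saline.

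Il16 encodes the precursor of a T cell chemoattractant that binds CD4. It averaged 36.8 ± 8.02 CPM in batch 1 bleomycin and 34.1 ± 3.04 CPM in batch 2 bleomycin, against 26.2 ± 2.01 CPM in saline, with no overlap in either batch. Its log2 change of 0.49 (SE 0.13, adjusted p = 0.0102) became 0.30 (adjusted p = 0.0578) without bleomycin replicate 8. Exons of Il16 share 1202 bases with Stard5 on the other strand in the GENCODE M21 annotation. Whether counting used strand is not given in the sources used here, and without strand reads from those bases cannot be told apart. One Il16 start, on the minus strand at chr7:83655496-83655745 (GRCm38.p6, RefSeq), is preceded by the sequence below, whose capitals mark overlapping NF-kB-like matches on both strands at -49 to -39.
Il16: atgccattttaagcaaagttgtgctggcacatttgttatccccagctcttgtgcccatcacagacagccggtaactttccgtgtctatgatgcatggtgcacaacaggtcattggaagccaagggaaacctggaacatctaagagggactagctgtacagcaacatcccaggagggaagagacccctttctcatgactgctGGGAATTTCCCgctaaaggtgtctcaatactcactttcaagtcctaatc

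Several ligands that lung structural cells make did not pass. Il33, the nuclear alarm ligand that activates type 2 innate lymphoid cells, had 38.0 ± 10.4 CPM in batch 1 bleomycin, 45.6 ± 4.4 CPM in batch 2 bleomycin and 41.7 ± 4.90 CPM in saline (log2 change -0.13, SE 0.16, adjusted p = 0.561). Il18, which caspase-1 processes, had 3.26 ± 2.00 CPM in batch 1 bleomycin, 3.81 ± 1.88 CPM in batch 2 bleomycin and 5.03 ± 2.67 CPM in saline (log2 change -0.63, adjusted p = 0.337). Il15, a survival factor of NK and memory T cells, had a log2 change of -0.30 (adjusted p = 0.405). Il7, the stromal survival factor of lymphocytes, had one of 0.61 (adjusted p = 0.159), and Il17d one of -0.58 (adjusted p = 0.312). A p over the threshold does not show that these levels were alike.

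Il11, a gp130 ligand studied for its part in fibrosis, was likewise not called. Its levels were 0.989, 1.70, 1.26 and 2.56 CPM in batch 1 bleomycin and 1.49, 0.510, 1.18 and 0.146 CPM in batch 2 bleomycin, against 0.511, 1.16, 1.06, 0.629 and 0.294 CPM in saline. All of these groups overlap (log2 change 1.16, SE 0.56, adjusted p = 0.126).

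Il34, a second ligand of the Csf1r receptor of macrophages, was the member that differed between the bleomycin batches. It had 6.26, 6.42, 7.40 and 7.31 CPM in batch 1 bleomycin and 11.1, 9.69, 11 and 12.3 CPM in batch 2 bleomycin, against 7.46, 9.97, 8.54, 8.93 and 9.49 CPM in saline. Batch 1 libraries all lay below saline and all but 1 of the batch 2 libraries above it. The batch term was 0.68 on the log2 scale, batch 2 over batch 1 (adjusted p = 0.0485). That call was lost when any 1 of 12 libraries was left out (adjusted p = 0.0529 to 0.157) and was kept only without bleomycin replicate 8 (0.0345). The treatment term was -0.37 (adjusted p = 0.0844).

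The IL-36 ligands act on epithelium and are best known from skin. Il36g was lower in bleomycin, with 0.494, 1.53, 0.866 and 1.83 CPM in batch 1 and 1.33, 2.14, 0.338 and 0.586 CPM in batch 2, against 3.58, 0.928, 3.58, 9.11 and 5.74 CPM in saline. Saline replicate 2 fell within the bleomycin range, and the log2 change was -1.96 (SE 0.60, adjusted p = 0.0203). The call was lost without saline replicate 4 (adjusted p = 0.0557) or bleomycin replicate 7 (0.0605). Il36a had 0.219 ± 0.254 CPM in batch 1 bleomycin, 0.255 ± 0.510 CPM in batch 2 bleomycin and 2.5 ± 2.46 CPM in saline (adjusted p = 0.0635). Il36b had a log2 change of -2.39 (adjusted p = 0.179).

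Markers of stratified squamous epithelium, the lining of skin and oesophagus, varied with the IL-36 genes across libraries in part. The 9 markers (Krt4, Krt13, Krt14, Krt6a, Krtdap, Dsg3, Sprr3, Lor and Calml3) were chosen after the values were seen. Their summed level was 9.48, 134, 161 and 782 CPM in batch 1 bleomycin replicates 5 to 8 and 10.3, 1740, 28.8 and 16.8 CPM in batch 2 replicates 1 to 4, against 1517, 11.7, 534, 3379 and 2799 CPM in saline replicates 1 to 5. The summed level of Il36a, Il36b, Il36g and the antagonist gene Il36rn was 0.577, 2.22, 1.10 and 3.70 CPM in batch 1 bleomycin and 1.33, 5.81, 0.338 and 0.586 CPM in batch 2, against 12.5, 0.928, 5.36, 27.0 and 14.5 CPM in saline. Saline replicate 2 was lowest of its group in both sums, and replicates 8 and 2 were highest in their bleomycin batches in both. Elsewhere the sums parted. Bleomycin replicate 1 was lowest of batch 2 in the markers but not in the IL-36 sum, and replicates 6 and 7 stood in opposite order. Bleomycin replicate 2 held more of the markers than saline replicate 1 (1740 against 1517 CPM) but less of the IL-36 sum (5.81 against 12.5 CPM). In edgeR's test none of the 9 markers was called; 2 were lower at an unadjusted p under 0.05, and DESeq2 and limma-voom each called 1 lower. Their part in the IL-36 result was not tested.

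**Figure D2:**
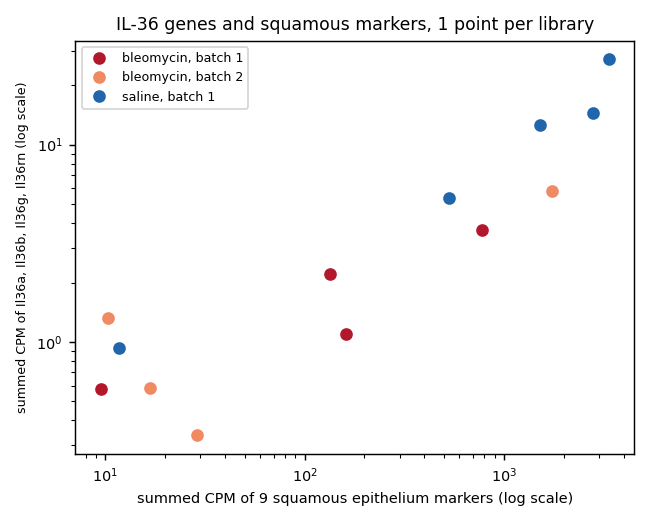
Summed CPM of Il36a, Il36b, Il36g and Il36rn (vertical, log scale) against summed CPM of 9 squamous epithelium markers (horizontal, log scale), with 1 point per library for batch 1 bleomycin, batch 2 bleomycin and saline. The saline library with 11.7 CPM of the markers lies among the lowest bleomycin libraries, and the bleomycin library with 1740 CPM of them has the highest bleomycin IL-36 sum, 5.81 CPM.

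Of the 69 members, 13 had too few counts to test, among them 8 of the 24 ligands. Il10, the ligand that restrains myeloid cells, held 31 pooled counts in batch 1 bleomycin, 7 in batch 2 bleomycin and 6 in saline, and the batch 1 ratio over saline was 4.46 (95% exact interval 1.83 to 13.1). The p19 gene Il23a had a batch 1 ratio of 7.34 (2.62 to 28.5) and a batch 2 ratio of 7.74 (2.35 to 32.9). Il4, the type 2 ligand, held 15, 2 and 2 counts in batch 1 bleomycin, batch 2 bleomycin and saline. For Il24 the counts were 12 in batch 1 bleomycin, 2 in batch 2 bleomycin and 0 in saline. Set against a floor of 3 counts over the saline group, batch 1 was 3.45-fold higher, and the exact 95% lower limit of the ratio was 2.40. Il5, Il17b, Il21 and Il27, the other ligands under the filter, averaged at most 0.203 CPM in any group. Counting error alone is covered by these intervals, and they are too narrow where both reads of a pair were counted. The receptor genes Il1rapl1, which neurons use, Il20ra and Il31ra also stayed under the filter.

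**Figure D3:**
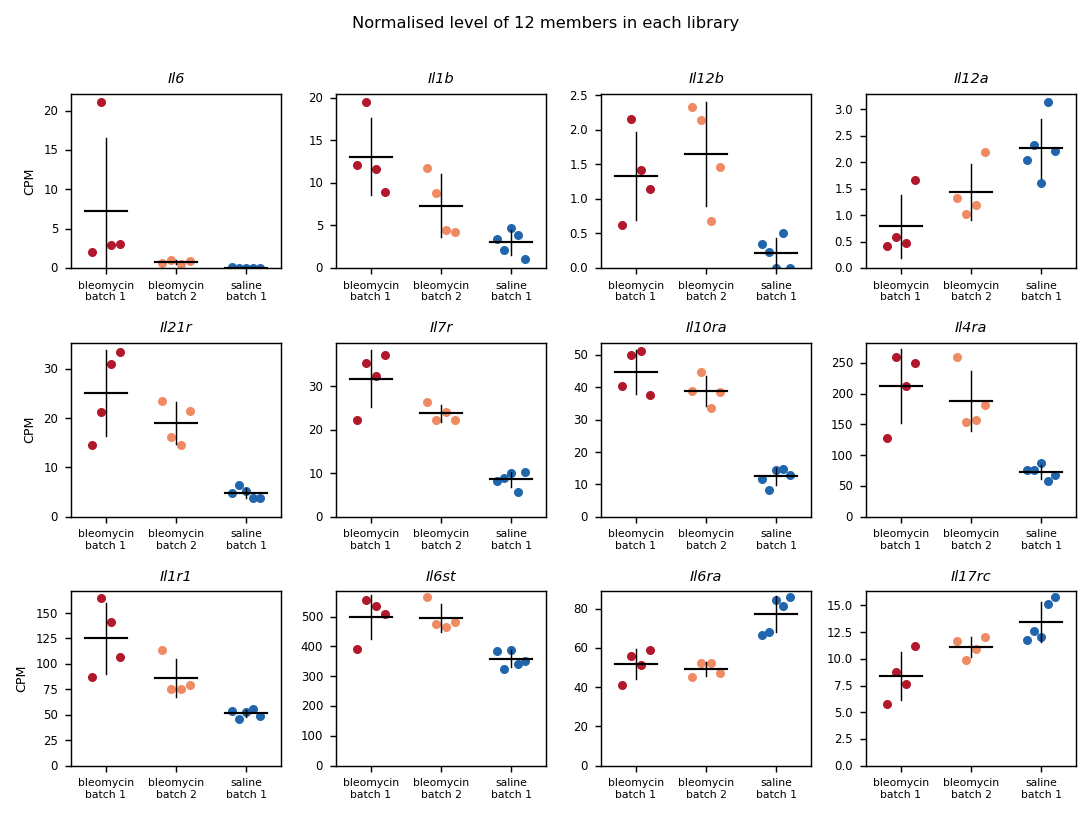
CPM of 12 members in each library (points), with batch 1 bleomycin on the left of each panel, batch 2 bleomycin in the middle and saline on the right; horizontal lines are means and vertical lines the SD over 4, 4 and 5 libraries, and each vertical axis starts at 0. Il6 in saline lies at 0 apart from 1 library at 0.170 CPM, and Il6ra and Il17rc have higher means in saline than in either bleomycin batch.

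The receptors of the common gamma chain family serve lymphocytes. Of 9 tested genes of that family, its ligands included, 5 were higher, where 17.5% of all tested genes were, and the other 4 were not called. Il2rg, the shared chain itself, averaged 15.0 ± 4.70 CPM in batch 1 bleomycin and 12.8 ± 2.92 CPM in batch 2 bleomycin, against 6.84 ± 1.32 CPM in saline, with no overlap (log2 change 1.13, SE 0.22, adjusted p = 0.00116). A predicted gene, Gm20489, shares 728 exon bases with Il2rg on the same strand. Il21r, which pairs with it on B and T cells, had 14.6, 21.3, 31.0 and 33.4 CPM in batch 1 bleomycin and 23.6, 16.2, 14.6 and 21.5 CPM in batch 2 bleomycin, against 4.77, 6.49, 5.22, 3.83 and 3.82 CPM in saline. Each bleomycin library held more than 2-fold the highest saline value, and the log2 change was 2.39 (SE 0.24, adjusted p = 4.47e-06). Il7r, the receptor of resting T cells and innate lymphoid cells, had 22.2, 35.2, 32.4 and 37.1 CPM in batch 1 bleomycin and 26.2, 22.2, 24.1 and 22.3 CPM in batch 2 bleomycin, against 8.10, 8.81, 9.96, 5.78 and 10.2 CPM in saline. The groups were again apart (log2 change 1.89, SE 0.17, adjusted p = 2.19e-06).

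Il9r, the receptor of a mast cell and T cell growth factor, rose to 4.85 ± 2.04 CPM in batch 1 bleomycin and 4.84 ± 1.94 CPM in batch 2 bleomycin, against 1.10 ± 0.834 CPM in saline (log2 change 2.19, SE 0.49, adjusted p = 0.00335). Bleomycin replicate 6 at 1.94 CPM overlapped saline, whose highest value was 2.44 CPM. Il2rb, the chain that IL-2 and IL-15 share, averaged 12.9 ± 3.82 and 10.7 ± 1.07 CPM in the batch 1 and batch 2 bleomycin libraries and 5.61 ± 2.08 CPM in saline (log2 change 1.21, SE 0.29, adjusted p = 0.00464). Il2ra, the high-affinity IL-2 chain of regulatory T cells, had 4.37, 11.1, 9.84 and 12.5 CPM in batch 1 bleomycin and 5.81, 8.37, 8.03 and 8.93 CPM in batch 2 bleomycin, against 3.41, 10.4, 2.19, 4.02 and 2.21 CPM in saline. Saline replicate 2 stood within the bleomycin range, and Il2ra did not pass (log2 change 1.13, adjusted p = 0.0544). That library also had the highest saline sum of 9 T cell markers, 77.1 CPM, where the other saline libraries held 30.9 to 56.6 CPM. The part of T cell number in this value was not tested. Il15ra, which presents IL-15 to neighbouring cells, had a log2 change of -0.44 (adjusted p = 0.0831).

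Il4ra, the chain through which IL-4 and IL-13 both signal, had 128, 259, 212 and 249 CPM in batch 1 bleomycin and 259, 154, 157 and 182 CPM in batch 2 bleomycin, against 75.5, 76.7, 87.1, 57.3 and 67.8 CPM in saline. All 8 bleomycin libraries lay above saline (log2 change 1.54, SE 0.21, adjusted p = 0.000137). Il13ra1, its partner for IL-13, had 53.3 ± 10.5 CPM in batch 1 bleomycin, 47.3 ± 10.8 CPM in batch 2 bleomycin and 44.5 ± 8.72 CPM in saline and was not called (log2 change 0.26, adjusted p = 0.266). Il4ra and Il21r are neighbours with no protein-coding gene between them in the RefSeq order, and both were higher. Of the receptors that share the beta common chain, Il3ra rose to 10.6 ± 3.23 CPM in batch 1 bleomycin and 10.8 ± 2.55 CPM in batch 2 bleomycin, against 4.77 ± 1.22 CPM in saline (log2 change 1.14, SE 0.24, adjusted p = 0.00182). Il5ra, the eosinophil receptor chain, had a log2 change of 1.00 with an SE of 0.65 (adjusted p = 0.266).

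Among the IL-10 family receptors, Il10ra rose and the other 4 tested members did not pass. Il10ra, the IL-10 binding chain of leukocytes, had 40.5, 49.9, 51.3 and 37.5 CPM in batch 1 bleomycin and 38.9, 44.8, 33.5 and 38.5 CPM in batch 2 bleomycin, against 11.8, 8.35, 14.5, 14.9 and 12.9 CPM in saline. The lowest bleomycin library held 33.5 CPM and the highest saline library 14.9 CPM (log2 change 1.83, SE 0.16, adjusted p = 1.35e-06). Il10rb, a widely expressed chain that several IL-10 family receptors share, had a log2 change of 0.21 (adjusted p = 0.145). It averaged 37.8 ± 0.919 CPM in batch 1 bleomycin, 39.9 ± 1.45 CPM in batch 2 bleomycin and 32.6 ± 4.68 CPM in saline. Its batch 2 libraries all lay above saline, and it passed in edgeR without a batch term (adjusted p = 0.0445). Il20rb had a log2 change of 0.33 (adjusted p = 0.351), and Il22ra1, the IL-22 receptor of epithelium, one of -0.65 (adjusted p = 0.295).

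In the IL-1 receptor family, 5 of 6 genes that lie side by side on chromosome 1 were higher, although the call of one, Il18r1, is weak. Of all tested genes, 17.5% were higher. In RefSeq order these are Il1r2, Il1r1, Il1rl2, Il1rl1, Il18r1 and Il18rap, with no other protein-coding gene between them. Il1r1, the signalling receptor of IL-1, had 86.8, 165, 141 and 107 CPM in batch 1 bleomycin and 114, 75.5, 75.1 and 79.2 CPM in batch 2 bleomycin, against 53.3, 46.2, 53.0, 55.1 and 48.7 CPM in saline. No bleomycin library overlapped saline (log2 change 1.29, SE 0.17, adjusted p = 6.13e-05). Il1rl1, the IL-33 receptor ST2, averaged 12.9 ± 3.51 and 9.17 ± 1.18 CPM in batch 1 and batch 2 bleomycin, against 5.32 ± 1.57 CPM in saline, again without overlap (log2 change 1.27, SE 0.24, adjusted p = 0.0009). Il18rap, the accessory chain of the IL-18 receptor, averaged 19.5 ± 9.36 CPM in batch 1 bleomycin and 14.3 ± 2.34 CPM in batch 2 bleomycin, against 8.62 ± 1.21 CPM in saline (log2 change 1.17, SE 0.24, adjusted p = 0.00198).

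The remaining changes in that block were smaller. Il1rl2, the IL-36 receptor, rose by 0.56 on the log2 scale (SE 0.14, adjusted p = 0.00648), to 31.7 ± 5.89 CPM in batch 1 bleomycin and 29.7 ± 4.20 CPM in batch 2 bleomycin, against 21.4 ± 2.44 CPM in saline. Il18r1, the IL-18 binding chain, had 98.2 ± 17.0 CPM in batch 1 bleomycin, 91.0 ± 5.92 CPM in batch 2 bleomycin and 74.6 ± 13.1 CPM in saline, and both batches overlapped saline. Its call (log2 change 0.40, SE 0.13, adjusted p = 0.0328) was lost when any 1 of 7 libraries was left out: bleomycin replicates 3, 5, 6 and 7 and saline replicates 1, 4 and 5, with an adjusted p of up to 0.137. It was also lost with RLE size factors in edgeR (adjusted p = 0.0717), by DESeq2 (0.0711) and in batch 1 alone (0.0886). Il1rap, the accessory chain that the IL-1, IL-33 and IL-36 receptors share, lies on another chromosome. It had a log2 change of 0.33 (adjusted p = 0.128). One of 2 Il1r1 starts, at chr1:40266336-40266585 on the plus strand of GRCm38.p6 (RefSeq), has an NF-kB-like match on the other strand, in capitals, at -232 to -223 of the bases before it.
Il1r1: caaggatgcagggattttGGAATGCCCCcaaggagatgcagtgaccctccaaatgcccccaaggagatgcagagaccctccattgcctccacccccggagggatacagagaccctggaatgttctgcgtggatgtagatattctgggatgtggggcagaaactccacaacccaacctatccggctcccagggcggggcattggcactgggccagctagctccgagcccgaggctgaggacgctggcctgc

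Promoter windows of 250 bases before to 50 bases after a start were at hand for 52 of the 69 members. Of 25 windows of 19 higher members, 4 held the NF-kB-like letters on either strand: those of Il6, Il16 and Il1r1 printed above and one of Il4ra, at 21 to 30 after its start. The same letters also stood in windows of Il17rc, which was called lower, and of Il1rn, Il2ra, Il22ra1 and Il23r, which were not called. Over all 32851 windows the share was 5.56%, and over the 16196 windows of tested genes it was 6.08%. The AP-1-like letters TGANTCA stood in 3 of the 25 windows and in 7.81% of all. A STAT-like word (TTCNNNGAA) stood in 2, against 8.30% of all, and a PU.1-like word (GAGGAAGT) in 2, against 3.20%. The TGANTCA and TTCNNNGAA words read the same on both strands. A match is a description of these letters and not a binding site, and with 25 windows these counts are too small to set against the shares.

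In the gp130 group, the shared chain rose while ligand-binding chains of IL-6 and IL-11 fell. Il6st, which encodes gp130, had 391, 556, 537 and 509 CPM in batch 1 bleomycin and 565, 475, 464 and 481 CPM in batch 2 bleomycin, against 386, 325, 390, 339 and 352 CPM in saline. Bleomycin replicate 5 barely exceeded the highest saline value, and no library overlapped (log2 change 0.48, SE 0.11, adjusted p = 0.00329). Il6ra, the IL-6 binding chain, had 41.3, 55.7, 51.1 and 58.7 CPM in batch 1 bleomycin and 45.3, 52.1, 52.2 and 47.2 CPM in batch 2 bleomycin, against 66.4, 68.2, 84.2, 81.1 and 86.1 CPM in saline. Every bleomycin library was below every saline library (log2 change -0.58, SE 0.11, adjusted p = 0.0013). Il11ra1, the IL-11 binding chain of stromal cells, had 29.5 ± 2.41 CPM in batch 1 bleomycin and 29.6 ± 2.36 CPM in batch 2 bleomycin, against 40.6 ± 5.80 CPM in saline (log2 change -0.46, SE 0.12, adjusted p = 0.00762).

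Il27ra, the IL-27 binding chain of lymphocytes, rose to 7.26 ± 1.10 CPM in batch 1 bleomycin and 7.43 ± 0.809 CPM in batch 2 bleomycin, against 2.34 ± 0.203 CPM in saline (log2 change 1.63, SE 0.20, adjusted p = 2.1e-05). The lowest bleomycin library held 5.69 CPM and the highest saline library 2.63 CPM. Il11ra2 is a near copy of Il11ra1 in the mouse, so its reads may have been divided between the copies. It had 0.486 ± 0.150 CPM in batch 1 bleomycin and 1.39 ± 0.911 CPM in saline (adjusted p = 0.0718), with a single pooled count in batch 2 bleomycin against 110 in saline, a ratio of 0.0235 (95% exact interval 0.000589 to 0.133).

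The IL-12 and IL-23 receptor chains were low and none was called. Il12rb1, the chain that both receptors share, had a log2 change of 0.98 (SE 0.40, adjusted p = 0.078), with 1.43 ± 0.466 CPM in batch 1 bleomycin, 1.98 ± 0.545 CPM in batch 2 bleomycin and 0.712 ± 0.176 CPM in saline. Il12rb2, specific to IL-12, had one of -0.66 (adjusted p = 0.196), and 1519 of its exon bases are shared with Serbp1 on the other strand. Il23r, specific to IL-23, had one of -0.21 (adjusted p = 0.81).

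Within the IL-17 receptor family the tested chains were called in both directions. Il17ra, the chain common to these receptors, had 39.5, 84.9, 60.1 and 76.6 CPM in batch 1 bleomycin and 74.2, 51.3, 52.7 and 62.1 CPM in batch 2 bleomycin, against 37.0, 28.4, 40.0, 32.2 and 28 CPM in saline. Bleomycin replicate 5 fell just under the highest saline library, and the log2 change was 0.97 (SE 0.19, adjusted p = 0.00167). Il17rc, which completes the receptor for IL-17A and IL-17F, had 5.81, 8.79, 7.68 and 11.2 CPM in batch 1 bleomycin and 11.6, 9.90, 10.9 and 12 CPM in batch 2 bleomycin, against 11.8, 12.6, 12, 15.1 and 15.8 CPM in saline. Batch 1 lay entirely below saline and batch 2 touched its range (log2 change -0.69, SE 0.18, adjusted p = 0.00997).

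Il17rd, also known as a brake on FGF signalling, fell to 35.0 ± 2.55 CPM in batch 1 bleomycin and 43.9 ± 4.53 CPM in batch 2 bleomycin, against 50.6 ± 6.66 CPM in saline (log2 change -0.54, SE 0.11, adjusted p = 0.00197). Only batch 1 was clear of saline. Il17rb, the IL-25 binding chain of type 2 lymphoid cells, had 1.5 ± 0.163 CPM in batch 1 bleomycin and 2.56 ± 1.11 CPM in batch 2 bleomycin, against 0.535 ± 0.347 CPM in saline (log2 change 1.43, SE 0.48, adjusted p = 0.0325). That call was lost without any 1 of bleomycin replicates 6, 7 and 8 or saline replicates 1, 2 and 5 (adjusted p = 0.0583 to 0.0765), and in batch 1 alone (0.0572). Il17re, the IL-17C receptor chain of epithelium, had a log2 change of -0.41 (adjusted p = 0.11). The ligands Il17a, Il17c, Il17f and Il25 were all under the count threshold.

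The inhibitors moved in different directions. Il18bp, a secreted protein that binds IL-18, rose to 9.72 ± 0.641 CPM in batch 1 bleomycin and 9.15 ± 1.13 CPM in batch 2 bleomycin, against 6.01 ± 1.74 CPM in saline (log2 change 0.69, SE 0.21, adjusted p = 0.0191). Without saline replicate 2 the adjusted p was 0.0614. Il1rn, the IL-1 receptor antagonist, had 5.19, 27.3, 22.3 and 25.1 CPM in batch 1 bleomycin and 23.6, 8.37, 6.25 and 8.64 CPM in batch 2 bleomycin, against 8.61, 3.02, 10.7, 9.93 and 8.38 CPM in saline. A single library of each bleomycin batch broke with the other 3, replicate 5 below them and replicate 1 above, and Il1rn was not called (log2 change 1.28, SE 0.51, adjusted p = 0.0792).

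Il36rn, the IL-36 receptor antagonist, was lower, with 0.0824, 0.139, 0 and 0.325 CPM in batch 1 bleomycin and 0, 2.04, 0 and 0 CPM in batch 2 bleomycin, against 3.15, 0, 1.06, 7.17 and 3.90 CPM in saline. Saline replicate 2 held none. The log2 change was -4.43 (SE 1.40, adjusted p = 0.0297), and the call was lost without bleomycin replicate 5, 6 or 7 or saline replicate 4 (adjusted p = 0.0579 to 0.0746). It was also lost by limma-voom (adjusted p = 0.0741) and with no filter beyond a summed count above 10 (0.056). Without bleomycin replicate 8 the log2 change was -5.25. The squamous markers described with the IL-36 ligands varied with this gene in part as well, and their part in the result was not tested. Of the decoys, Il1r2 had 4.38 ± 3.10 CPM in batch 1 bleomycin, 2.52 ± 1.79 CPM in batch 2 bleomycin and 2.67 ± 2.28 CPM in saline (adjusted p = 0.52). Il22ra2 averaged 0.431, 0.0423 and 0.991 CPM in these groups and was not called (log2 change -1.20, adjusted p = 0.247). Its batch 2 libraries all lay below saline, with 2 pooled counts against 91, a ratio of 0.0567 (95% exact interval 0.00677 to 0.211, counting error only). Il13ra2, the IL-13 decoy, stayed under the filter at a mean of 0.288 CPM in batch 1 bleomycin, 0.106 CPM in batch 2 bleomycin and 0.182 CPM in saline.

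Il4i1 is named for its induction by IL-4 and encodes an enzyme that oxidises amino acids, not a cytokine. It had 10.7, 7.85, 13.8 and 17.1 CPM in batch 1 bleomycin and 10.6, 16.9, 11.7 and 23.4 CPM in batch 2 bleomycin, against 2.30, 2.90, 1.93, 3.39 and 4.56 CPM in saline. Both batches lay above saline (log2 change 2.05, SE 0.30, adjusted p = 0.000111). Its exons share 3423 bases with Tbc1d17 on the other strand and 97 with Nup62 on its own, so part of these counts may not be its own. Il1bos, which runs antisense to Il1b, averaged 0.333, 0.209 and 0.499 CPM in batch 1 bleomycin, batch 2 bleomycin and saline and was not tested.

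Ratios within a library set the partners of a receptor, or a ligand and its receptor, side by side; they are descriptions with no test. Il6ra over Il6st was 0.0952 to 0.115 in batch 1 bleomycin and 0.0803 to 0.113 in batch 2 bleomycin, against 0.172 to 0.245 in saline. Il17rc over Il17ra was 0.103 to 0.147 in batch 1 bleomycin and 0.157 to 0.207 in batch 2 bleomycin, against 0.301 to 0.564 in saline. Il13ra1 over Il4ra was 0.190 to 0.334 in batch 1 bleomycin and 0.195 to 0.326 in batch 2 bleomycin, against 0.459 to 0.749 in saline. In these pairs the ratio of every bleomycin library lay below that of every saline library, and so did Il11ra1 over Il6st and Il15ra over Il2rb.

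Other ratios lay higher in bleomycin than in saline without overlap. Il10ra over Il10rb was 1.02 to 1.32 in batch 1 bleomycin and 0.850 to 1.13 in batch 2 bleomycin, against 0.266 to 0.591 in saline. Il21r over Il2rg was 1.23 to 2.7 in batch 1 bleomycin and 1.39 to 1.60 in batch 2 bleomycin, against 0.574 to 0.875 in saline. Il27ra over Il6st was 0.0102 to 0.0206 in batch 1 bleomycin and 0.0146 to 0.0153 in batch 2 bleomycin, against 0.00586 to 0.00714 in saline. Il7r over Il2rg and Il18rap over Il18r1 overlapped between the groups.

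Ligand and receptor pairs gave the following picture. Il1rl1 over Il33 was 0.201 to 0.472 in batch 1 bleomycin and 0.191 to 0.216 in batch 2 bleomycin, against 0.0732 to 0.190 in saline, so batch 2 only just cleared saline. The antagonist ratios overlapped: Il1rn over Il1b was 0.429 to 2.80 in batch 1 bleomycin and 0.943 to 2.03 in batch 2 bleomycin, against 1.44 to 8.14 in saline. Il18bp over Il18 was 1.49 to 7.24 in batch 1 bleomycin and 1.21 to 4.12 in batch 2 bleomycin, against 0.784 to 2.57 in saline. For IL-6 the ligand rose while its binding chain fell and its shared chain rose. For IL-1 the ligand Il1b and the receptor Il1r1 both rose. For IL-33, IL-7 and IL-18 the ligand was not called while at least 1 receptor chain was higher, and for IL-9 and IL-21 the receptor was higher with the ligand at no more than 16 counts in all.

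**Figure D4:**
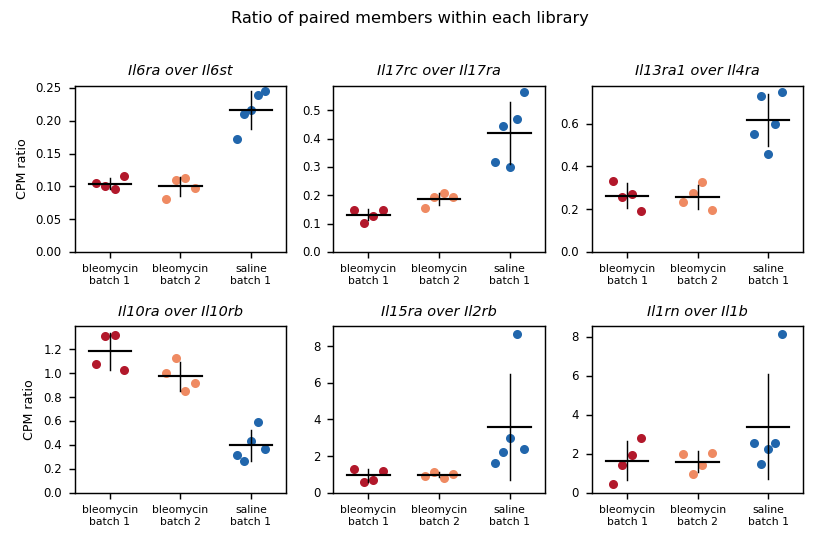
Ratio of the CPM of paired members in each library (points) for batch 1 bleomycin, batch 2 bleomycin and saline, with the mean (horizontal line) and SD (vertical line) over 4, 4 and 5 libraries; vertical axes start at 0. Il6ra over Il6st, Il17rc over Il17ra, Il13ra1 over Il4ra and Il15ra over Il2rb are lower in all bleomycin libraries than in saline, Il10ra over Il10rb is higher, and Il1rn over Il1b overlaps.

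Levels can be set between genes only per exon length, which was known for 68 of the 69 members. In batch 1 bleomycin, Il6st stood highest at 44.9 CPM per kb, followed by Il4ra at 35.3, Il18r1 at 20.4, Il1r1 at 19.7 and Il13ra1 at 14.4 CPM per kb. In saline the order was Il6st at 32.3, Il18r1 at 15.5, Il33 at 14.4, Il4ra at 12.1 and Il13ra1 at 12 CPM per kb. Il33 was the most abundant ligand per length in each group, with 13.2 CPM per kb in batch 1 bleomycin, 15.8 in batch 2 bleomycin and 14.4 in saline. Il6, for all its change, reached 2.99 CPM per kb in batch 1 bleomycin and 0.316 in batch 2 bleomycin, against 0.0140 in saline.

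**Figure D5:**
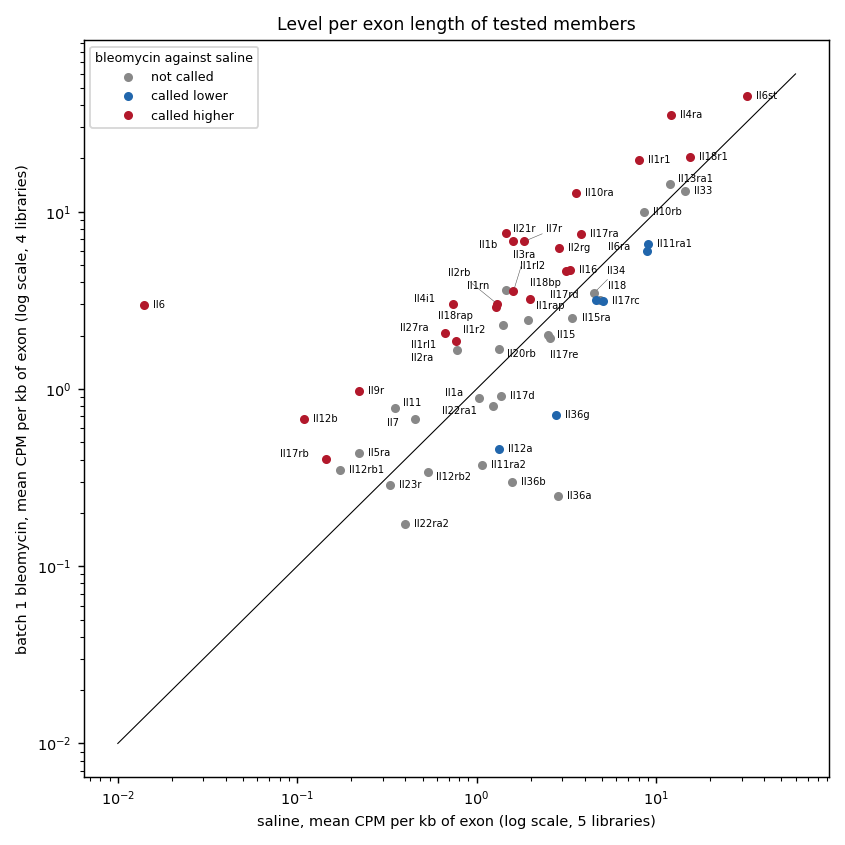
Mean CPM per kb of exon in batch 1 bleomycin (vertical, log scale, 4 libraries) against saline (horizontal, log scale, 5 libraries) for the 55 tested members with an exon length, coloured by call; the diagonal marks equal levels. Il6 lies far above the diagonal at 2.99 against 0.0140 CPM per kb, and most called receptor genes lie above it by less.

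Genes that work with these receptors under other names were followed through 6 lists, chosen as the members were with earlier results of these data known. Beside the counts of these lists stand 17.5% of all tested genes called higher and 13.4% called lower. Some genes recur between lists, such as Nfkbiz in the IL-1 and IL-17 lists. Of 17 partner chains and related cytokines, 11 were higher and 2 lower (median log2 change 1.47). They include the GM-CSF receptor alpha chain Csf2ra (1.63, SE 0.15, adjusted p = 2.65e-06), the beta common chains Csf2rb2 (2.74, SE 0.27, adjusted p = 9.45e-06) and Csf2rb (2.05, SE 0.24, adjusted p = 5.87e-05), and Cd4 (1.93, SE 0.22, adjusted p = 1.32e-05), the T helper coreceptor that binds IL-16. Among 18 JAK, STAT and SOCS genes, 12 were higher and 1 lower (median 0.55). Jak3, the kinase of the common gamma chain, rose by 1.12 (SE 0.13, adjusted p = 1.44e-05), and Socs3, the feedback inhibitor of gp130 signalling, by 2.83 (SE 0.30, adjusted p = 4.55e-05).

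Stat3, the main STAT of gp130, rose by 0.74 on the log2 scale (SE 0.11, adjusted p = 0.000134), and the phosphatase gene Ptpn6 by 1.38 (SE 0.19, adjusted p = 7.68e-05). Of 19 IL-1 receptor adaptor and inflammasome genes, 10 were higher and none lower (median 0.54), among them Casp4 (1.22, adjusted p = 1.01e-05), Nfkb1 (0.68, adjusted p = 1.14e-05), Aim2 (1.29, adjusted p = 0.000131) and the inflammasome sensor Nlrp3 (1.42, adjusted p = 0.000155). Of 8 tested IL-17 signalling genes, 7 were higher and none lower (median 0.83), led by Lcn2 (2.09, adjusted p = 9.91e-07) and the RNase gene Zc3h12a (1.02, adjusted p = 8.44e-05). The neutrophil chemokine Cxcl5 rose by 3.57 (adjusted p = 0.000743), and Nfkbiz, a cofactor of NF-kB, by 0.65 (adjusted p = 0.00123).

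Target genes of IL-6 and of IL-4 and IL-13 also rose in part. Of 12 tested IL-6 family targets, 9 were higher and none lower (median 1.5), with Junb at 1.66 (adjusted p = 1.56e-06) and Bcl3 at 1.84 (adjusted p = 2.63e-06) beside Lcn2 and Socs3, which stand in other lists too. Of 17 IL-4 and IL-13 targets, 7 were higher and none lower (median 1.46). Ccl22 (2.22, adjusted p = 5.75e-05) and Ccl17 (2.58, adjusted p = 0.000892) encode T cell chemokines, and Retnla (2.67, adjusted p = 0.00102) and Egr2 (2.53, adjusted p = 0.000643) mark alternatively activated macrophages. In the 4 lists with none lower by edgeR, 0 members were lower at an unadjusted p under 0.05 and 0 by DESeq2 or limma-voom. Arg1, another marker of such macrophages, had 22.1 ± 20.8 CPM in batch 1 bleomycin, 16.8 ± 24.6 CPM in batch 2 bleomycin and 3.81 ± 2.46 CPM in saline and was not called (adjusted p = 0.103).

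Markers of the cells that carry these receptors differed between the groups as well. Beside their counts stand 17.5% of all tested genes called higher and 13.4% called lower, and the shorter lists are too small to set against these shares. The markers Csf1r, Mrc1, Chil3 and Cd209a also stand in the pathway lists. Of 8 macrophage markers all 8 were higher, and their sum was 452 to 902 CPM in batch 1 bleomycin and 557 to 871 CPM in batch 2 bleomycin, against 229 to 237 CPM in saline. Of 6 markers of alveolar macrophages, Car4, which the endothelial list also holds, and Krt79 were lower and the other 4 were not called, and their sum was 161 to 290 CPM in batch 1 bleomycin and 152 to 289 CPM in batch 2 bleomycin, against 192 to 469 CPM in saline. Of 9 T cell markers 5 were higher, with sums of 61.7 to 93.1 CPM in batch 1 bleomycin, 74.9 to 105 CPM in batch 2 bleomycin and 30.9 to 77.1 CPM in saline. All 6 B cell markers were higher, with sums of 59.4 to 115 CPM in batch 1 bleomycin, 54.8 to 139 CPM in batch 2 bleomycin and 18.5 to 44.0 CPM in saline, and so were 5 of 7 dendritic cell markers and 3 of 3 regulatory T cell markers. Of 6 tested neutrophil markers 2 were higher, of 6 NK cell markers none was higher and 1 lower, and of 4 tested mast cell and basophil markers none was called. For the NK and mast cell lists no further marker passed at an unadjusted p under 0.05 or by DESeq2 or limma-voom. For epithelium, 3 of 5 airway markers were lower, with sums of 2231 to 3293 CPM in batch 1 bleomycin, 2314 to 6217 CPM in batch 2 bleomycin and 6761 to 12317 CPM in saline, as were 3 of 6 alveolar type 2 markers and 3 of 5 alveolar type 1 markers. Of 6 endothelial markers 1 was higher and 3 lower, of 6 fibroblast markers 3 were higher and 1 lower, and of 5 markers of type 2 lymphoid and Th2 cells 3 were higher and 1 lower. Of 3 tested plasma cell markers 2 were higher, as was 1 of 3 blood markers, and the single tested eosinophil marker and the 4 heart muscle markers were not called. The heart muscle sum varied widely, at 514 to 3902.5 CPM in batch 1 bleomycin and 96.5 to 2380 CPM in batch 2 bleomycin. It was highest in bleomycin replicate 5 and lowest in bleomycin replicate 1, while saline libraries held at most 844 CPM. No marker of these lists was at 0 in all libraries. The part of these cell types in the receptor results was not tested.

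Within batch 1 bleomycin the members were not highest in the same library. Replicate 8 held the highest value for 20 of 56 tested members (35.7%, against 29.9% of all tested genes) and replicate 6 for 18 (32.1%, against 23.6%). Replicate 5 held it for 8 (14.3%, against 27.2%).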

How the data were processed

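The 69 members, the gene lists and the comparisons were chosen with earlier results of these data known, so nothing here is independent of them. The authors deposited raw counts, 1 whole number per gene symbol and library; cutadapt 4.4, STAR 2.7.10b, featureCounts 2.0.3, DESeq2 1.42.1 and build mm39 are named in the submitters' processing notes, while the strand setting, annotation and use of molecular identifiers are not stated. Among counts of 1 to 10, 78.4% to 86.1% per library were even, so both reads of a pair may have been counted and counts are not independent molecules. Within a treatment all 38 pairs of libraries differed by more than sampling noise, with chi-square at least 10.1 times its degrees of freedom.

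Genes were filtered with filterByExpr over the 3 batch and treatment groups (20468 kept), scaled with TMM factors and tested with edgeR 4.0.16 under R 4.3.3 (glmQLFit with robust fitting, glmQLFTest) on all 13 libraries, with batch and treatment as additive terms and Benjamini-Hochberg adjustment over all tested genes. The biological coefficient of variation was 0.306. The procedure was first tested on simulated data. CPM are counts over the TMM-scaled total; exon lengths came from GENCODE M21 and promoter windows from RefSeq GRCm38.p6, both matched by symbol, and no mm39 coordinates are given. Low genes were compared as pooled counts with exact 95% intervals, all of them too narrow where both reads of a pair were counted. A floor of 3 counts stands for a group at 0. Every called member was named with its statistics, and the tested relatives in its family with their values; of each pathway list up to 4 called genes with the lowest p were named. Alternatives were RLE factors, DESeq2 1.42.0, limma-voom (limma 3.58.1), other filters, halved counts, replicate 8 moved to saline, each library left out, no batch term, batch 1 alone and a replicate block. The deposited normalized table was not used here.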

Additional observations from a re-analysis of the deposited data

Results flagged for a closer look

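In 17 of 168 combinations of a tested member and a group, 1 library stood apart from the others of its group. For normally distributed values chance gives about 1 in 20. That rate does not hold where all other libraries of the group are at 0, since a single library with counts then always stands apart. This was so for Il11ra2, Il22ra2, Il36a, Il36b and Il36rn in batch 2 bleomycin and for Il6 in saline. The 17 therefore cannot be set against that rate. Within batch 1 bleomycin these were Il6 at 21.1 CPM in replicate 6 and Il12a at 1.67 CPM in replicate 8. In batch 2 bleomycin, replicate 1, the shallowest library, stood above its group for Il1r1 (114 CPM), Il1rn (23.6 CPM), Il27ra (8.64 CPM), Il3ra (14.6 CPM) and Il6st (565 CPM). Replicate 2 of that batch stood above it for Il36a (1.02 CPM), Il36b (0.612 CPM), Il36rn (2.04 CPM) and Il5ra (1.43 CPM), and for Il11ra2 it alone held a count (0.102 CPM). Replicate 3 alone held counts of Il22ra2 (0.169 CPM). In saline, Il2ra stood at 10.4 CPM in replicate 2, Il2rb at 2.01 CPM in replicate 4, below its group, Il12rb2 at 2.87 CPM in replicate 5, and Il6 at 0.170 CPM in replicate 1, the only saline library with a count of it.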

How the results depend on the processing

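The members called higher numbered 23, and 20 to 26 under every alternative other than the one that moves bleomycin replicate 8 to saline, which gave 3. The alternatives that gave 20 to 26 include the replicate block, in which batch and treatment are mixed. Those called lower numbered 7 and were 6 to 10 under RLE factors, DESeq2, limma-voom, other filters, halved counts, no batch term and batch 1 alone, and 3 with replicate 8 moved. Over all tested genes, those called higher numbered 3586, with 2383 (replicate block) to 3870 (limma-voom) elsewhere and 399 with replicate 8 moved. Those called lower numbered 2733, with 2119 (without bleomycin replicate 6) to 3512 (DESeq2) elsewhere and 246 with replicate 8 moved. Between batches the count was 1, and it was 2 by DESeq2, 0 by limma-voom, 0 without a filter and 0 with replicate 8 moved. Leaving out 1 library at a time gave 20 to 25 higher, 4 to 8 lower and 0 to 2 between batches. Of 30 calls, 22 were kept under every alternative apart from the moved replicate 8 and the replicate block, and Il10ra, Il1r1 and Il6ra under all.

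Pairing of libraries by replicate number was not seen, but the check cannot settle it. Deviations of same-numbered bleomycin and saline libraries correlated at -0.34 to 0.07 over genes. For bleomycin those deviations were taken from a mean that mixes both batches. With the replicate block, which uses replicates 1 to 5 of each group, 20 members were higher and 4 lower. The log2 change of some uncalled members turned its sign. With replicate 8 moved, it was 0.07 for Il1a and 0.11 for Il33; without a batch term it was 0.004 for Il33; under the block it was -0.44 for Il1r2, -0.16 for Il1rap, 0.10 for Il33 and 0.14 for Il34. For Il23r, leaving out 1 library gave -0.399 to 0.026. The cause was not tested. No scaling moved the median of all genes by over 0.1. Depth limits the 13 members below the filter most: 3 counts are 0.498 CPM in the shallowest library.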
